A study of Mus musculus with 8 samples.

Results

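Complex I, the NADH:ubiquinone oxidoreductase of the mitochondrial inner membrane, is described here through the genes whose symbols begin with Nduf. Members were found by joining the deposited expression values to the platform annotation, keeping probe sets with a single symbol of that form, and taking for each gene the probe set with the highest mean. This gave 43 genes of 19938 tested: 6 core subunits, 28 accessory subunits, 7 assembly factors (the Ndufaf genes) and 2 genes that carry the name without being counted as complex I subunits here, Ndufa4 and Ndufa4l2. The accessory subunits Ndufb1 and Ndufb4 and the assembly factor Ndufaf8 were not analysed here, because no probe set named them alone.

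Complex I takes electrons from NADH, passes them along iron-sulfur clusters in an arm that reaches into the matrix, and couples their transfer to ubiquinone to proton pumping in a membrane arm. The core subunits carry out this chemistry and are partly encoded in mitochondrial DNA, the accessory subunits surround and stabilise them, and the assembly factors help to build the enzyme and then leave it. In the heart, complex I feeds most oxidative ATP synthesis, and during reperfusion it is a known site of oxidant production. Loss of DJ-1, a redox-sensitive protein encoded by Park7, has been linked with altered complex I function.

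The hearts came from male mice of strain CH3 (as the labels spell it), aged 8 to 10 weeks and weighing 25 to 30 g. The 4 placebo mice received phosphate-buffered saline and the 4 DJ-1 mice received recombinant DJ-1 protein, in each case 1 hour before ligation of the left anterior descending artery. All 8 hearts then went through 45 minutes of occlusion and 2 hours of reperfusion, so neither group shows the gene levels of a heart without ischaemia. Each mouse contributed 1 array of myocardial tissue, and values are log2 expression values. The sample codes in the labels run through the placebo hearts and then the DJ-1 hearts, so any order of processing cannot be told apart from treatment. The array medians over all probe sets lay between 5.25 and 5.35, and pairs of arrays correlated at 0.987 to 0.994 over the tested genes. On the first principal component DJ-1 replicates 3 and 4 were highest (15.6 and 13.2), placebo replicate 2 and DJ-1 replicates 1 and 2 were lowest (-13.8 to -13.0), and the groups overlapped. The tissue carried its defining markers: all 12 cardiomyocyte markers lay above the background guide, with a placebo mean of 12.91 and a DJ-1 mean of 12.85 for the myosin gene Myh6. All 43 Nduf genes lay above the same guide, at means of 5.70 to 13.09, where the guide is the 95th percentile of 1027 olfactory receptor genes (4.74).

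No Nduf gene differed between DJ-1 and placebo hearts beyond the spread between replicates. The limma comparison, with Benjamini-Hochberg adjustment over all genes, passed 0 of 43 members at an adjusted p of 0.05, and 0% of all genes passed. At an unadjusted p under 0.05, 0 of 43 members passed, against 5.99% of all genes. The 4 DJ-1 and 4 placebo arrays overlapped for every member, whereas 3.22% of all genes had no overlap. The smallest unadjusted p of any member was 0.110 (Ndufa4l2, rank 2648 of 19938), and adjusted p ran from 0.824 to 0.996 over the 43 genes.

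The estimated differences were small. In 33 of the 43 genes the difference was below 0.1 on the log2 scale, and the range ran from -0.19 for Ndufb8 to 0.22 for Ndufb3. A difference of 0.22 is a 1.16-fold higher level and one of -0.19 a level of 0.877-fold. A p that misses the threshold does not show that levels were alike, so the intervals give what the arrays can bound. The 95% confidence interval of each of the 43 genes included 0 and lay inside a 1.5-fold change in either direction; the outermost bounds were 0.731-fold for Ndufb8 and 1.43-fold for Ndufb3. Of genes above the background guide, 93.5% had an interval inside 1.5-fold. The interval lay inside 0.3 on the log2 scale for 29 members, against 34.9% of genes above the guide. The plot of the 43 differences by class shows all intervals crossing 0.

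**Figure D1:**
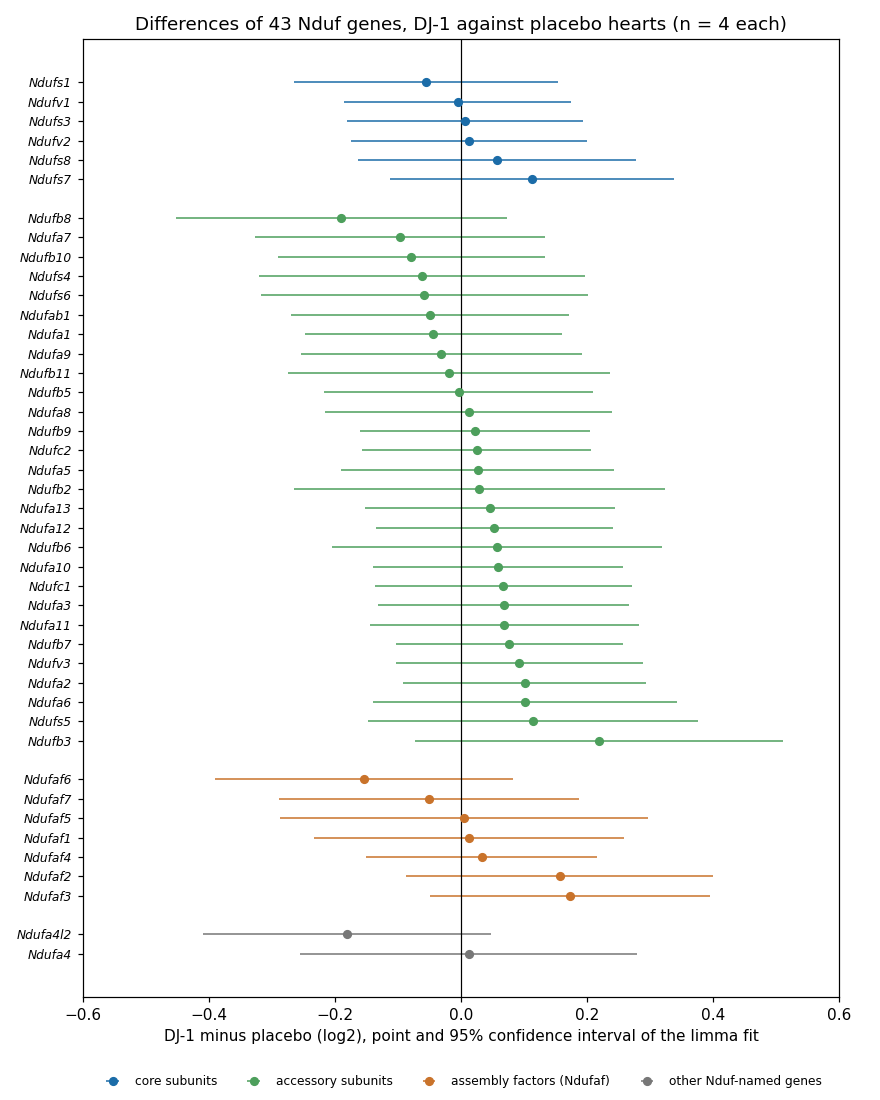
Difference between DJ-1 and placebo hearts (x axis, log2) for each of the 43 Nduf genes (y axis), with the 95% confidence interval of the limma fit, coloured by class (n = 4 arrays per group). Every interval crosses 0; the lowest point is Ndufb8 at -0.19 and the highest is Ndufb3 at 0.22.

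The mean was higher in DJ-1 hearts for 28 of the 43 members (65.1%) and lower for 15. Across all genes the mean was higher for 52.5%. This split was set partly by the scaling, since 24 members were higher after cyclic loess and 22 after quantile normalization. Among genes above the background guide, where all 43 members lie, it was higher for 45.4%. The member median was 0.023, beside 0.0082 for all genes and -0.014 for those above the guide. It was 0.0030 without placebo replicate 1, 0.0082 without DJ-1 replicate 1 and up to 0.042 with another array left out.

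By class, the median difference was 0.0093 for the core subunits (4 of 6 with a higher mean), 0.028 for the accessory subunits (18 of 28) and 0.012 for the assembly factors (5 of 7). The sign of the core median turned with quantile normalization (-0.013, 2 of 6 higher) and cyclic loess (-0.0086, 2 of 6 higher). The accessory and assembly medians stayed positive under these scalings, with 16 and 17 of 28 accessory genes and 4 and 4 of 7 assembly genes higher. Single arrays moved all of these medians: with each array left out in turn, the assembly median ran from -0.070 (without DJ-1 replicate 1) to 0.058 (without DJ-1 replicate 3). The accessory median ran from 0.0091 (without placebo replicate 1) to 0.052 (without DJ-1 replicate 3), and the core median from 0.0024 (without DJ-1 replicate 1) to 0.030 (without DJ-1 replicate 3). The classes also differed in how much their genes varied among hearts of 1 group. The median residual SD was 0.084 for core, 0.112 for accessory and 0.144 for assembly genes, with 0.121 over all members and 0.152 over all genes above the background guide. Of the members, 32 had a residual SD below that last value. The classes differed in signal level too, with gene means of 10.62 to 13.09 for core and 5.70 to 9.63 for assembly genes. The part of signal level in the SDs was not tested. These class figures are descriptions and were not tested against each other.

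Among the core subunits, the pair that receives electrons from NADH varied little between hearts. Ndufv1, which holds the flavin and the NADH-binding site, was at 11.64, 11.67, 11.62 and 11.74 on placebo replicates 1 to 4 and at 11.62, 11.68, 11.66 and 11.69 on DJ-1 replicates 1 to 4. Its range over the 8 arrays was the narrowest of the 43 genes. The difference was -0.0055 (SE 0.08, 95% confidence interval -0.19 to 0.18). Its partner Ndufv2, an iron-sulfur subunit, was at 12.14, 12.29, 12.20 and 12.13 on the placebo arrays and 12.25, 12.24, 12.15 and 12.17 on the DJ-1 arrays. The DJ-1 arrays all lay within the placebo range, and the difference was 0.012 (SE 0.09). Ndufs1, which carries further iron-sulfur clusters of the matrix arm, was at 10.63, 10.64, 10.56 and 10.76 on the placebo arrays and 10.57, 10.72, 10.65 and 10.43 on the DJ-1 arrays. DJ-1 replicate 4 was the lowest array, and without it the difference of -0.055 (SE 0.10) became -0.0013.

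The core subunits nearer to ubiquinone also had overlapping groups. Ndufs3 was at 11.66, 11.67, 11.68 and 11.57 on the placebo arrays and 11.76, 11.64, 11.58 and 11.63 on the DJ-1 arrays, a difference of 0.0062 (SE 0.09) that turned negative with quantile normalization and cyclic loess. Ndufs8, which binds a pair of iron-sulfur clusters, was at 11.72, 11.52, 11.39 and 11.57 on the placebo arrays and 11.64, 11.49, 11.57 and 11.72 on the DJ-1 arrays. Its highest arrays, placebo replicate 1 and DJ-1 replicate 4, belonged to different groups, and the difference was 0.058 (SE 0.10). Ndufs7, whose cluster hands electrons to ubiquinone, had the largest core difference. It was at 13.10, 12.95, 13.00 and 13.07 on the placebo arrays and 13.06, 12.97, 13.20 and 13.35 on the DJ-1 arrays. DJ-1 replicates 3 and 4 were above all placebo arrays and DJ-1 replicates 1 and 2 within them. The difference of 0.11 (SE 0.10, 95% confidence interval -0.11 to 0.34, adjusted p = 0.867) became -0.017 without replicates 3 and 4.

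**Figure D2:**
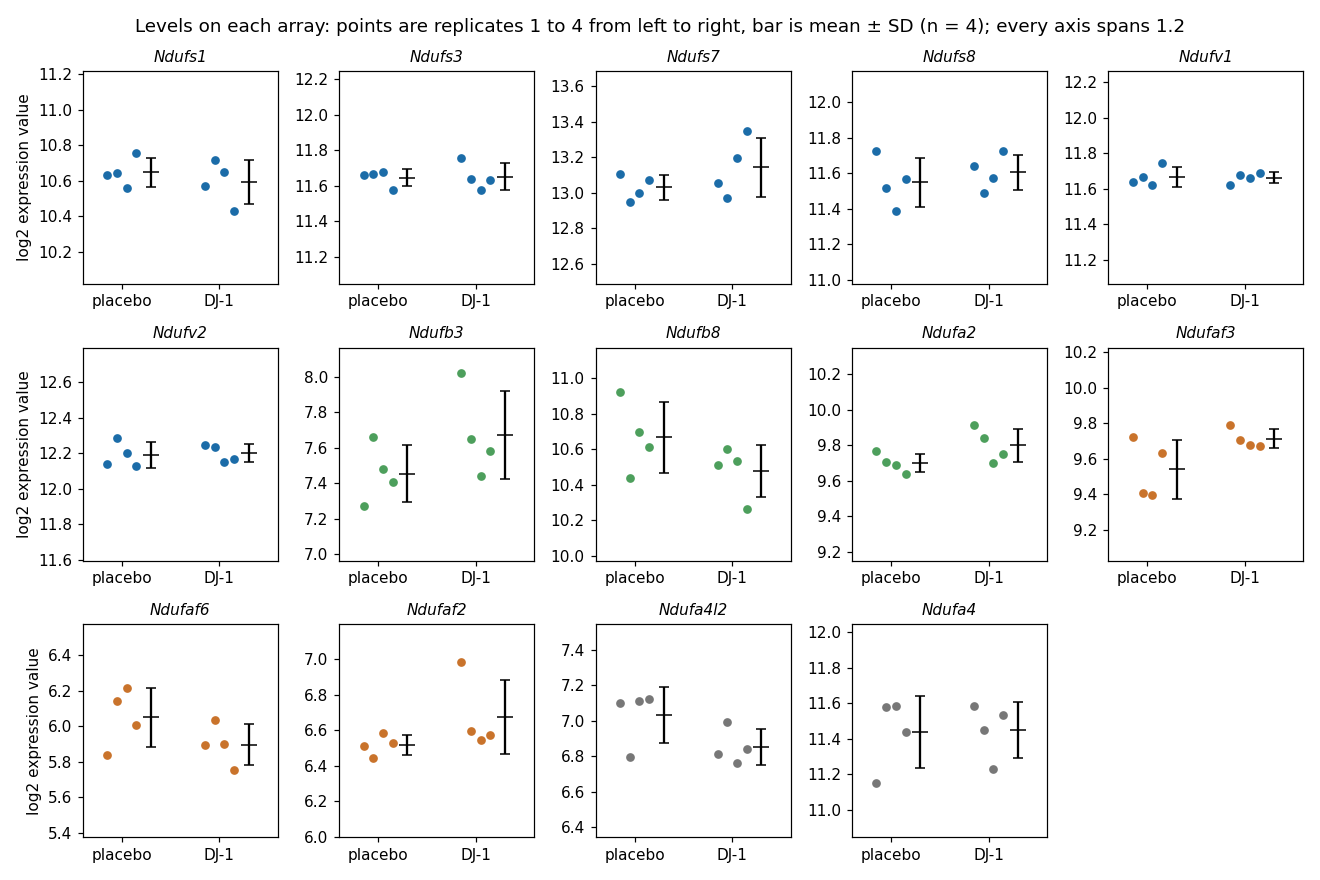
Log2 expression value (y axis) of 14 Nduf genes on each array, with placebo and DJ-1 replicates 1 to 4 as points from left to right and mean ± SD (n = 4) beside them; every axis spans 1.2. The groups overlap in each panel, and DJ-1 replicate 1 stands highest for Ndufb3 (8.02) and Ndufaf2 (6.98).

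The accessory subunits held both the largest and the smallest difference of the family, and these were also its most variable genes over the 8 arrays. Ndufb3, a small subunit of the membrane arm, was at 7.27, 7.66, 7.48 and 7.41 on the placebo arrays and 8.02, 7.65, 7.44 and 7.58 on the DJ-1 arrays. DJ-1 replicate 1 was well above the other 7 arrays, which overlapped. The difference was 0.22 (SE 0.13, 95% confidence interval -0.07 to 0.51, adjusted p = 0.824), with 0.10 when DJ-1 replicate 1 was left out and 0.38 when DJ-1 replicates 3 and 4 were. Ndufb8, also of the membrane arm and often used as a protein marker of assembled complex I, was at 10.92, 10.44, 10.70 and 10.61 on the placebo arrays and 10.51, 10.60, 10.54 and 10.27 on the DJ-1 arrays. The highest and lowest arrays were placebo replicate 1 and DJ-1 replicate 4, while placebo replicate 2 lay below 3 of the DJ-1 arrays. The difference was -0.19 (SE 0.12, 95% confidence interval -0.45 to 0.07, adjusted p = 0.832), and -0.11 without placebo replicate 1. Ndufa2, a matrix-arm subunit with a thioredoxin-like fold, was at 9.77, 9.70, 9.69 and 9.64 on the placebo arrays and 9.91, 9.84, 9.70 and 9.75 on the DJ-1 arrays. DJ-1 replicates 1 and 2 were above all placebo arrays and replicates 3 and 4 within them, with a difference of 0.10 (SE 0.09, adjusted p = 0.864).

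The other accessory subunits differed by -0.097 to 0.11. Of the membrane-arm subunits, 13 of 18 were higher on average after DJ-1, at a median of 0.038, and of the matrix-arm subunits, core genes included, 9 of 15, with a median of 0.012. The matrix-arm median turned negative with quantile normalization (-0.011) and cyclic loess (-0.0073). On the higher side stood Ndufs5 (0.11), Ndufa6 (0.10), Ndufv3 (0.093), Ndufb7 (0.077), Ndufa11, Ndufa3, Ndufc1, Ndufa10, Ndufb6, Ndufa12, Ndufa13, Ndufb2, Ndufa5, Ndufc2, Ndufb9 and Ndufa8 (0.012). On the lower side stood Ndufa7 (-0.097), Ndufb10 (-0.079), Ndufs4 (-0.061), Ndufs6 (-0.058), Ndufab1 (-0.050), Ndufa1, Ndufa9, Ndufb11 and Ndufb5 (-0.0039). Given after their values were seen are Ndufs4 and Ndufa6. Ndufs4, a subunit whose loss causes Leigh-like disease, was at 11.95, 11.74, 12.07 and 11.97 on the placebo arrays and 11.83, 12.09, 11.94 and 11.62 on the DJ-1 arrays, so its extremes were both in the DJ-1 group. Ndufab1, the mitochondrial acyl carrier protein, and Ndufa13, also known as Grim19, had intervals of -0.27 to 0.17 and -0.15 to 0.24. Ndufa6 showed how 1 array can set a difference: placebo replicate 1 was at 9.91 and the other 7 arrays lay between 10.24 and 10.41.

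Promoter sequences were examined for letters bound by factors known for nuclear respiratory genes. RefSeq promoter windows (GRCm38.p6) were found for 38 of the 43 members and for 15614 tested genes, and the 250 bases before the start site were searched on both strands. The letters GCGCNTGCG, the core of the nuclear respiratory factor 1 site, occurred in 8 of 38 members (21.1%) and in 8.73% of all matched genes. Among genes whose GC content lay in the members' interquartile range (54.4% to 60.0%) the share was 9.12%. By class, the letters occurred in 7 of 26 matched accessory subunits, 1 of 6 assembly factors, 0 of 5 core subunits and 0 of 1 other gene. The ETS letters CCGGAAG, bound by GABPA, occurred in 4 of 38 members (10.5%, against 10.7% of genes). The letters AAGGTCA, bound by estrogen-related receptors, occurred in 2 (5.26% against 3.99%), the hypoxia-inducible factor core ACGTG in 5 (13.2% against 20.9%), and the YY1 letters AAGATGGCG in 0 (0.909% of genes). Among genes in the members' GC range the shares were 13.4% for CCGGAAG, 3.98% for AAGGTCA, 22.4% for ACGTG and 1.09% for AAGATGGCG. A match is a description of the letters and not of binding, and no motif share was tested.

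The 8 stretches that carry the nuclear respiratory factor 1 letters are shown because the members' share exceeded that of all genes most for this motif. Each is printed 5′ to 3′ in the direction of transcription, with up to 20 bases on either side, ending at the latest before the start site, and with the matching letters of either strand in capitals. The name of each gene is followed by its position.
Ndufa11, chr17:56717682-56717730, plus strand: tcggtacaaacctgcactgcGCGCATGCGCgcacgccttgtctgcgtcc
Ndufa12, chr10:94198895-94198943, plus strand: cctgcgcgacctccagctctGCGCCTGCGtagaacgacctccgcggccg
Ndufa5, chr6:24527691-24527735, minus strand: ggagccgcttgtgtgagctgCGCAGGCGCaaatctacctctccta
Ndufa8, chr2:36049340-36049388, minus strand: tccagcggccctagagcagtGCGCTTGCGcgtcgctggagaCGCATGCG
Ndufaf4, chr4:24897950-24897998, plus strand: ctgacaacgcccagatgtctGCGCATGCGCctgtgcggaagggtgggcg
Ndufb10, chr17:24724424-24724469, minus strand: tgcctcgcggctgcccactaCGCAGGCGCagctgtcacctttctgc
Ndufs5, chr4:123718255-123718303, minus strand: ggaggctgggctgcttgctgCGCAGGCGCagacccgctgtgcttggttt
Ndufs6, chr13:73328483-73328518, minus strand: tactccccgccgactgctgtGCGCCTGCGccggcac

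The differences of these 8 genes ran from -0.079 (Ndufb10) to 0.11 (Ndufs5) at a median of 0.030, and the mean was higher after DJ-1 for 6. The 30 matched members without the letters had a median of 0.019, with 20 higher. In Ndufa8 the second match, written in capitals at the right end, runs past the printed stretch.

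Of the assembly factors, Ndufaf3 had the smallest p. This factor works with Ndufaf4 early in the building of the matrix arm. It was at 9.72, 9.41, 9.39 and 9.63 on the placebo arrays and 9.79, 9.71, 9.68 and 9.67 on the DJ-1 arrays. All DJ-1 arrays lay above placebo replicates 2 to 4, and placebo replicate 1 lay among them; the SD was 0.16 in the placebo and 0.05 in the DJ-1 group. The difference was 0.17 (SE 0.10, 95% confidence interval -0.05 to 0.39, adjusted p = 0.824), and it was 0.23 without placebo replicate 1, with an unadjusted p of 0.0437. Its partner Ndufaf4 differed by 0.033 (95% confidence interval -0.15 to 0.22).

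Ndufaf2, a late chaperone related to the subunit Ndufa12, was at 6.51, 6.45, 6.59 and 6.53 on the placebo arrays and 6.98, 6.60, 6.55 and 6.57 on the DJ-1 arrays. Only DJ-1 replicate 1 lay well above the rest. The difference of 0.16 (SE 0.11, adjusted p = 0.844) was 0.054 without it. Ndufaf6, needed early for assembly, was at 5.84, 6.14, 6.22 and 6.01 on the placebo arrays and 5.90, 6.04, 5.90 and 5.76 on the DJ-1 arrays. The lowest array was DJ-1 replicate 4 and the next lowest placebo replicate 1, with a difference of -0.15 (SE 0.11, adjusted p = 0.842). Ndufaf1, part of the membrane-arm assembly complex, Ndufaf5, which hydroxylates Ndufs7, and Ndufaf7, a methyltransferase, differed by 0.012, 0.0054 and -0.051. Of assembly factors without the Nduf name, 8 of 11 measured were higher on average, at a median of 0.045 and 0 past the adjusted threshold. Foxred1, a flavoprotein, differed by 0.13 (SE 0.11) and Ecsit, which acts with Ndufaf1, by -0.099 (SE 0.09), with adjusted p of 0.864 and 0.874.

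Ndufa4l2 had the smallest p of the family. It encodes a paralog of Ndufa4 that is induced under hypoxia and is also used as a pericyte marker. The level was 7.10, 6.80, 7.11 and 7.12 on the placebo arrays and 6.81, 6.99, 6.76 and 6.84 on the DJ-1 arrays. All DJ-1 arrays lay below 3 of the placebo arrays, and the overlap came from placebo replicate 2. The difference was -0.18 (SE 0.10, 95% confidence interval -0.41 to 0.05, adjusted p = 0.824), and without placebo replicate 2 it was -0.26 (unadjusted p = 0.0247).

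Of 9 markers of pericytes and smooth muscle, all above the background guide, 0 passed the adjusted threshold. The mean was lower after DJ-1 for 8 of them (7 with quantile normalization or cyclic loess), at a median of -0.16, where genes above the guide had a median of -0.014 and 45.4% higher. The smooth muscle actin gene Acta2, given after its values were seen, differed by 0.21 (SE 0.11). The array mean of the list ran from 0.03 to 0.18 over the placebo arrays and from -0.12 to 0.01 over the DJ-1 arrays. The KATP channel gene Kcnj8 differed by -0.44 (SE 0.13) and the receptor gene Pdgfrb by -0.30 (SE 0.12), each with an adjusted p of 0.824. Their part in the Ndufa4l2 value was not tested, and in tissue RNA fewer cells of a type cannot be told apart from less RNA per cell. Targets of hypoxia-inducible factors had 5 of 11 higher and 6 lower, with a median of -0.030. Ero1a, an oxidase of the endoplasmic reticulum, differed by 0.14 (SE 0.10) and Egln1, a prolyl hydroxylase, by -0.11 (SE 0.10), with adjusted p of 0.848 and 0.864. Ndufa4 itself, which has been reassigned to cytochrome c oxidase, was at 11.15, 11.58, 11.58 and 11.44 on the placebo arrays and 11.59, 11.45, 11.23 and 11.53 on the DJ-1 arrays. Each group had 1 low array, and the difference was 0.013 (SE 0.12), a value that turned to -0.0100 with quantile normalization.

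Single arrays held the extreme values of many members. DJ-1 replicate 1 held the highest value of 17 of the 43 genes and the lowest of 0, where 12.6% of genes above the background guide were highest on that array and 8.98% lowest. By class these were 1 of 6 core, 10 of 28 accessory and 5 of 7 assembly genes, and Ndufa4. Placebo replicate 1 held the lowest value of 10 members (23.3%, against 10.3% of genes above the guide), Ndufa6, Ndufb6 and Ndufb3 among them. Placebo replicate 2 held the lowest value of 9 (20.9% against 12.8%), Ndufa8, Ndufab1 and Ndufs6 among them. Placebo replicate 3 held the highest value of 8 (18.6% against 8.44%), Ndufs6, Ndufb6 and Ndufaf6 among them. DJ-1 replicate 4 held the lowest value of 8 (18.6% against 19.7%) and the highest of 7 (16.3% against 15.6%).

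**Figure D3:**
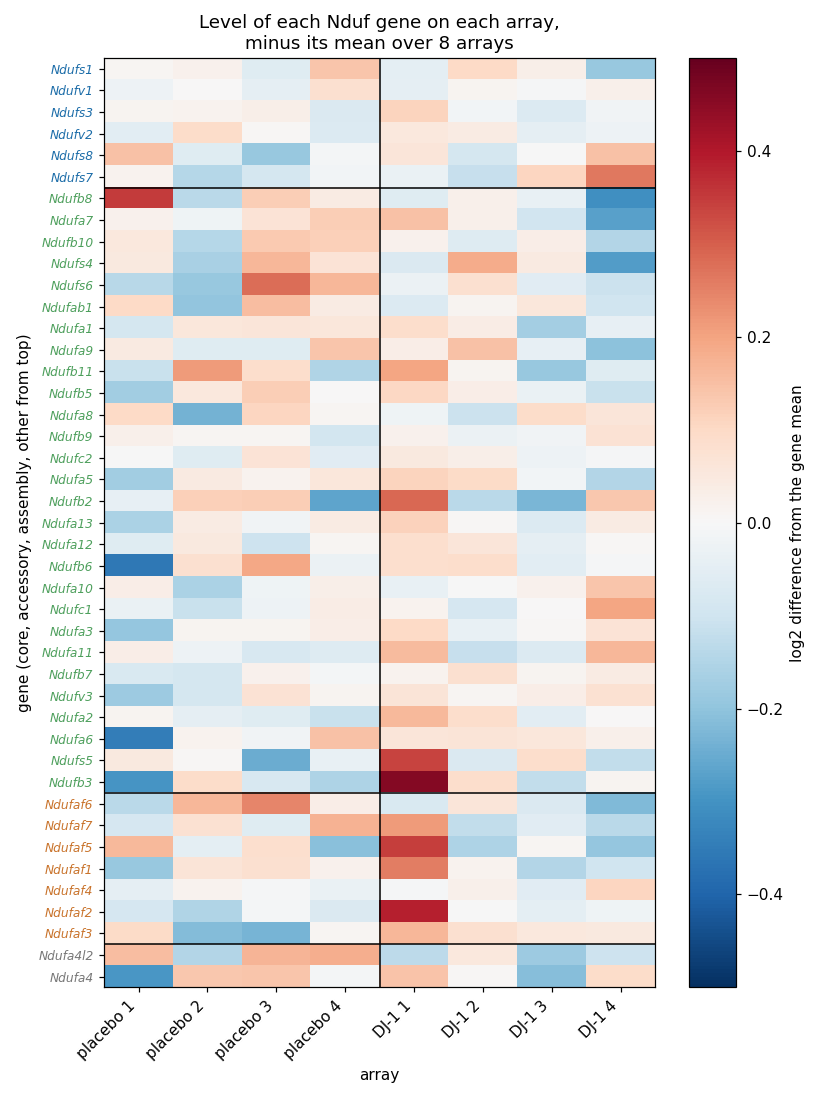
Level of each Nduf gene (rows, ordered by class and, within it, by the DJ-1 minus placebo difference) on each array (columns), as the log2 difference from that gene's mean over the 8 arrays. DJ-1 replicate 1 holds the highest value of 17 genes and the lowest of 0, and placebo replicate 1 holds the lowest of 10.

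The mean over the assembly factors, each gene taken relative to its own mean, was 0.18 on DJ-1 replicate 1 and between -0.074 and 0.013 on the other 7 arrays. The accessory mean was 0.086 there and between -0.055 and 0.039 elsewhere, and the core mean stayed between -0.058 and 0.034 on all arrays. Cardiomyocyte markers had their lowest array mean, -0.11, on DJ-1 replicate 1 and their highest, 0.11, on placebo replicate 4. Over the groups, 9 of 12 cardiomyocyte markers were lower on average after DJ-1 (12 with cyclic loess), at a median of -0.031. The giant sarcomere gene Ttn differed by -0.31 (SE 0.18) and the calcium release channel gene Ryr2 by -0.18 (SE 0.12), with adjusted p of 0.824 and 0.836. Neutrophil markers had array means of -1.43 to 0.88 in placebo and -0.48 to 1.11 in DJ-1 hearts, with 12 of 12 higher in the DJ-1 group and a median of 0.77. By the mean over all arrays, all 12 were above the background guide. Those of smallest p were Lcn2 (1.07, SE 0.49) and Ngp (1.06, SE 0.57), each with an adjusted p of 0.824. For Ngp the placebo mean (4.54) lay below the guide (4.74) and the DJ-1 mean (5.60) above it. By group means, Ngp therefore passed the guide only through the DJ-1 group, and its difference starts from a placebo mean within background. Single arrays were split in both groups. Placebo replicate 2 was at 6.23 and the other placebo arrays at 3.71 to 4.24, while DJ-1 replicate 4, at 4.23, lay below the guide. On DJ-1 replicate 1 the neutrophil mean was 0.85. The part of these cell types in the member values was not tested.

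The other marker lists gave 0 genes past the adjusted threshold, and the 10 genes named from them had adjusted p from 0.824 to 0.838 in the limma fit. Macrophage markers were higher on average after DJ-1 for 3 of 10 (median -0.044), with Csf1r, the receptor for macrophage colony-stimulating factor, at -0.13; the other gene of smallest p, Ccr2, lay below the background guide (mean 4.19). Fibroblast markers were lower for 8 of 8 (median -0.12), with Gsn at -0.21 and Lum, a matrix proteoglycan, at -0.31. Endothelial markers were lower for 6 of 8 (median -0.11), with Kdr, a VEGF receptor, at -0.48 and Emcn at -0.21. Erythroid markers were higher for 3 of 3 measured (median 0.56), with the anion exchanger Slc4a1 at 0.59 and Alas2, of haem synthesis, at 0.56. Lymphocyte markers were higher for 2 of 5 (median -0.059), but only 3 of the 5 lay above the background guide. Of the B cell genes of smallest p, Cd79a (mean 4.78, difference -0.44) was close to the guide and Ms4a1 (mean 3.72) below it. For Cd79a the placebo mean lay above the guide and the DJ-1 mean below it. By group means, Cd79a therefore passed the guide only through the placebo group, and its difference ends at a DJ-1 mean within background. Of the 7 mitochondrially encoded core subunits, 0 had a probe set that named them alone.

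**Figure D4:**
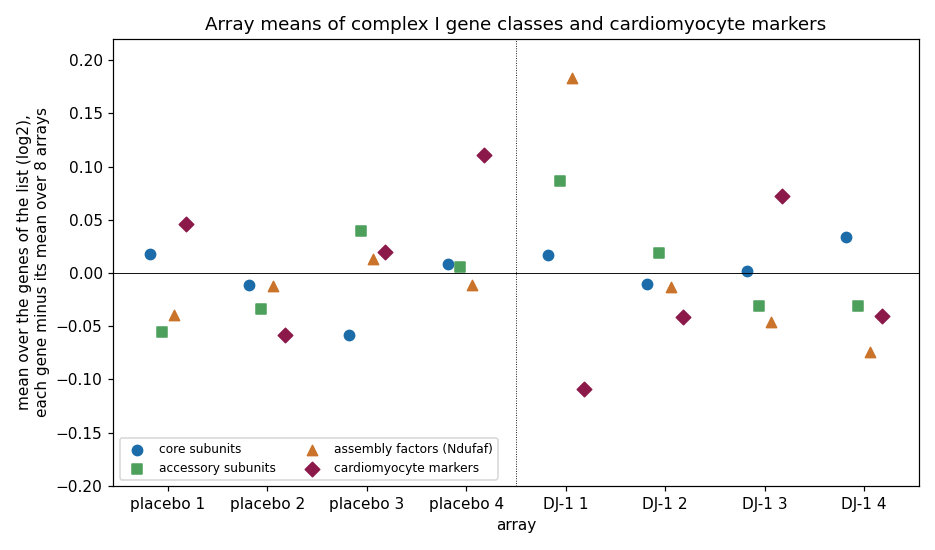
Mean over the genes of each class (y axis, log2, each gene minus its mean over 8 arrays) on each array (x axis), for core subunits, accessory subunits, assembly factors and cardiomyocyte markers. The assembly mean is 0.18 on DJ-1 replicate 1, where the cardiomyocyte mean is -0.11; the core means stay between -0.058 and 0.034.

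Of regulators known to drive nuclear genes of the respiratory chain, 10 of 12 were lower on average after DJ-1 (8 with quantile normalization or cyclic loess), at a median of -0.093. All 12 lay above the background guide, where genes had a median of -0.014 and 45.4% were higher. None passed the adjusted threshold (0 of 12). An unadjusted limma p under 0.05 was found for 1 of the 12, against 5.99% of all genes. The groups did not overlap for 2 of the 12, against 3.22% of all genes. Ppargc1b, a PGC-1 family coactivator, was at 7.53, 7.42, 7.47 and 7.53 on the placebo arrays and 7.14, 7.11, 7.31 and 7.05 on the DJ-1 arrays. The groups did not overlap, and the difference was -0.34 (SE 0.09, adjusted p = 0.824). Esrrb, an estrogen-related receptor, differed by -0.23 (SE 0.12, adjusted p = 0.824). Ppargc1a, the better known PGC-1 coactivator gene, differed the other way, by 0.26 (SE 0.15, adjusted p = 0.824), with overlapping groups. Nrf1, which encodes nuclear respiratory factor 1, also had no overlap, but its lowest placebo array (6.39) and highest DJ-1 array (6.38) nearly met. Its mean was 6.45 in placebo and 6.32 in DJ-1 hearts, with an adjusted p of 0.832 in the limma fit. Nrf1 and Ppargc1a are named after their values were seen. The 8 complex I genes that carry the nuclear respiratory factor 1 letters had a median of 0.030, as given above.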

How the data were processed

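For 35556 probe sets and 8 Affymetrix whole-transcript arrays, the deposited values are log2 expression levels. The authors made them with the RMA algorithm, according to the submitters' processing notes; the sources used here do not give its version, software or annotation build. No further scaling was applied. Probe sets with 1 gene symbol numbered 21789, those with several 1621 and those without any 12146. Each of 19938 genes was represented by its probe set of highest mean. An Nduf gene alone was named by 48 probe sets, and 3 named an Nduf gene together with others.

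The groups were compared across all genes with limma 3.58.1 (lmFit, eBayes; two-sided) under R 4.3.3, without covariates, and p-values were adjusted by Benjamini-Hochberg. The code was tested on simulated data. Classes and lists were written from general knowledge and, like the members, chosen with earlier results of these data known. Values by array are given for the core genes, the 3 genes of smallest p in each other class and the 2 of widest range, and from each marker or pathway list the 2 genes of smallest p are named. The labels number the replicates without saying how the mice were handled, and no batch is given, so p-values cover only the spread between these hearts. The 4 arrays per group limit the precision: the median SE of a member was 0.10. Probe sets of Ndufa11, Ndufs5, Ndufs6, Ndufab1 and Ndufa12 may also detect near-identical copies that RefSeq lists.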

Additional observations from a re-analysis of the deposited data

Results flagged for a closer look

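In 6 of 86 sets of 4 arrays (43 genes in 2 groups; 6.98%), 1 array lay far from the other 3 by Dixon's criterion, which chance gives in about 1 in 20 sets. Placebo replicate 1 was lowest for Ndufa1 (8.72, the others 8.86 to 8.87) and for Ndufa3 (11.52, the others 11.72 to 11.74). Placebo replicate 2 was lowest for Ndufa4l2 (6.80, the others 7.10 to 7.12). Placebo replicate 4 was lowest for Ndufb9 (11.84, the others 11.94 to 11.96) and for Ndufs3 (11.57, the others 11.66 to 11.68). DJ-1 replicate 1 was highest for Ndufaf2 (6.98, the others 6.55 to 6.60).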

How the results depend on the processing

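Under 18 alternatives, 0 members passed an adjusted p of 0.05; these covered quantile, median and cyclic loess scaling, the mean of all probe sets, a filter on low genes, an intensity trend, no variance moderation, array weights, the replicate block and arrays left out. At an unadjusted limma p under 0.05 the count was 1 without variance moderation (Ndufb7), 1 without DJ-1 replicates 3 and 4 (Ndufb3, 0.38), and 0 to 1 with each array left out (Ndufaf3 without placebo replicate 1, Ndufa4l2 without placebo replicate 2). Without DJ-1 replicates 3 and 4 the assembly median was 0.0998; with each array left out it ran from -0.070, without DJ-1 replicate 1, to 0.058. Of 252 gene and alternative pairs for the 14 genes given by array, 235 kept their sign, and 9 genes kept it throughout. Many of these pairs could not change sign. The filter, the intensity trend, the lack of variance moderation and the replicate block leave each difference as it was. The mean of all probe sets could move only Ndufs3 among the 14. The sign turned for Ndufs3 (-0.014 with quantile normalization, -0.0073 with cyclic loess, -0.029 to 0.030 over arrays left out) and Ndufv2 (-0.011, -0.0099, and -0.0086 to 0.045). It also turned for Ndufv1 (-0.022 to 0.020 over arrays left out), Ndufs7 (-0.017 without DJ-1 replicates 3 and 4) and Ndufa4 (-0.0100 with quantile normalization, -0.00066 with array weights, -0.082 to 0.086 over arrays left out). The cause was not tested. With the replicate block 0 members passed and the smallest unadjusted limma p was 0.126. Same-numbered arrays correlated at -0.048, 0.229, 0.243 and 0.0137 in their deviations from the group means. Of the 4 placebo arrays, 1 correlated best with its own number. The labels do not say whether the numbers pair the mice, and 4 such correlations cannot decide it.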

Other observations

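More than 1 probe set named 5 of the genes, and each pair had differences of the same sign. The set used and the other set differed by 0.069 and 0.094 for Ndufa11, -0.050 and -0.042 for Ndufab1, -0.019 and -0.066 for Ndufb11, 0.067 and 0.057 for Ndufc1, and 0.0062 and 0.011 for Ndufs3. Which of each pair reports the gene rather than a copy was not tested.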
